A study of Homo sapiens with 2 samples.

Results

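The genes described here serve autophagy and the lysosome: the autophagy machinery, the lysosomal cathepsins, the lysosome-associated membrane proteins, the subunits of the vacuolar proton pump (V-ATPase) and a few regulators. They were chosen by symbol. All symbols that begin with ATP6V, ATG, LAMP, ULK (each followed by a digit), GABARAP or MAP1LC3 were taken, with the cathepsins (CTS and a letter) and TFEB, TFE3, WDFY1, MTOR and BECN1. This gave 84 of the 26475 symbols listed, of which 75 are genes, 5 pseudogenes, 3 antisense RNAs and 1 a readthrough model.

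RNA sequencing was done on C4-2B ENZR cells, an enzalutamide-resistant prostate cancer line kept in 20 µM enzalutamide, a drug used against prostate cancer. The control library (shControl, labelled WT) came from cells given a hairpin RNA without a target, and the knockdown library (shNRP2) from cells with 1 hairpin against the coding region of NRP2, both delivered by lentivirus and selected with an antibiotic. Each group holds 1 library, so there is no spread between replicates and no test between conditions, and every difference describes these 2 libraries. The study concerns NRP2, the co-receptor neuropilin-2, in neuroendocrine prostate cancer, and the comparison asks how the RNA of these genes differed when NRP2 was targeted.

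The libraries held 21052178 (control) and 22992304 (knockdown) reads on genes. NRP2 itself had 20 reads in shControl and 7 in shNRP2, 0.974 and 0.330 CPM, 2.95-fold lower with a counting interval of 1.198 to 8.26. Both values lie under the mean of 1 CPM asked of compared genes below. On the log2(CPM + 1) scale used for those, its change of -0.57 falls just short of 1.5-fold. CPM are the deposited values, read counts that the authors scaled between libraries; the columns have unequal totals, so each fold depends on that scaling. Of the luminal prostate markers, HOXB13 was at 511 and 486 CPM and EPCAM at 121 and 130.1 CPM. The 6 leukocyte markers, among them PTPRC and CSF1R, had 15 and 7 reads in sum. Of 4 fibroblast markers, COL1A1 was at 41.5 and 32.5 CPM, while DCN had 0 reads in both libraries, and 3 endothelial markers summed to 3.75 and 3.87 CPM. The part of these cell types in the values below was not tested.

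Macroautophagy encloses cytoplasm in a double membrane, the autophagosome, and delivers it to the lysosome. The ULK kinase complex starts the process, the beclin 1 lipid kinase complex marks the membrane, and conjugation enzymes attach ATG8 proteins (the LC3 and GABARAP families) to it. The V-ATPase acidifies the lysosome, which activates cathepsins. The kinase mTOR holds both autophagy and the transcription factors TFEB and TFE3 in check when nutrients are plentiful. TFEB and TFE3 bind a motif common in promoters of lysosomal genes.

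Of the 84 members, 64 averaged 1 CPM or more across the pair of libraries and were compared. In bulk RNA, fewer cells of a type and less RNA per cell cannot be told apart. The change of a gene was log2((knockdown CPM + 1)/(control CPM + 1)), which understates differences of low genes, and a gene was counted at 1.5-fold or more on that scale. Only ATG16L2 and CTSV were counted as higher in the knockdown library, 2 of 64 (3.12%), where 5.78% of all 13316 compared genes were. ATP6V1G2 was the 1 member counted as lower (1.56%), against 3.57% of all compared genes. The remaining 61 lay between, so most of the machinery differed by less than 1.5-fold.

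Within those bounds the members lay a little above 0. Their median log2 change was 0.11, with quartiles at -0.08 and 0.29, and that of all compared genes was 0.03, with quartiles at -0.16 and 0.21. A change above 0 was seen for 41 of 64 members (64.1%) and for 54.1% of all compared genes. The authors' scaling bears on this: with equal library totals the medians were 0.03 and -0.05, and 34 members lay above 0. For single genes, the folds given are CPM ratios, and the 95% intervals beside them (Clopper-Pearson, exact, from the recovered reads) cover counting error only. Such an interval lay above 1 for 29 members (45.3%) and below 1 for 10 (15.6%), beside 32.7% and 24.0% of all compared genes. These counts hold for the deposited scaling and were not repeated under the others, where bounds near 1 can cross it.

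**Figure D1:**
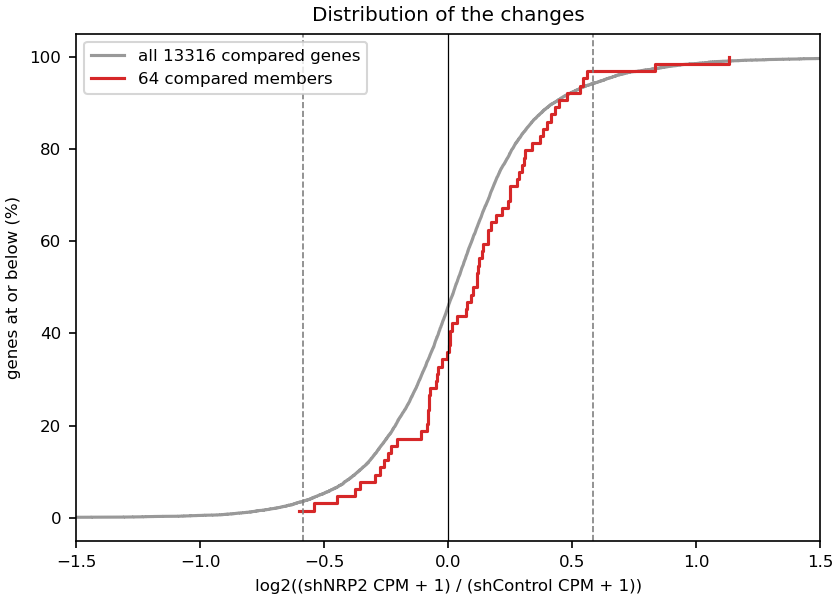
Cumulative distribution of the log2 change (knockdown over control, log2(CPM + 1) scale, x axis) for the 64 compared members (red) and all 13316 compared genes (grey), with the percentage of genes at or below each change on the y axis. The red curve lies to the right of the grey one around the middle (medians 0.11 and 0.03); dashed lines mark 1.5-fold.

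The regulators differed unequally. TFEB, a master transcription factor of lysosomal and autophagy genes, was at 11.98 CPM in shControl and 17.1 CPM in shNRP2, 1.43-fold higher (1.21 to 1.68). Its relative TFE3 was nearly equal, at 87.0 and 87.4 CPM (1.01-fold, 0.941 to 1.07). The ratio of TFEB to TFE3 reads, which does not depend on the scaling between libraries, was 0.138 in shControl and 0.195 in shNRP2, 1.42 times as high (1.19 to 1.70). MITF, a further factor of the family and not a member, was counted as higher, at 8.28 and 15.8 CPM (ratio 1.91, 1.58 to 2.31). MTOR was at 97.1 and 91.7 CPM, 1.06-fold lower (0.995 to 1.13), an interval that includes no difference. WDFY1, an endosomal protein with a FYVE domain, was at 38.0 and 45.3 CPM, 1.19-fold higher (1.083 to 1.31). Activity of the kinase and of the factors was not measured here.

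Promoter windows show where the TFEB and TFE3 motif lies among the members. RefSeq (GRCh38.p14) windows of 300 bases, 250 before and 50 after each start, were found for 62 of the 84 members, and 16199 listed genes had one. The 8 letters GTCACGTG, searched on both strands, were in 8 member promoters (12.9%) and in 3.85% of all. The core CACGTG, which the longer motif contains and which reads the same on both strands, was in 11 (17.7%) and in 10.5% of all. A match is a description of letters and not a bound site. The stretches below lie upstream of the start and are printed 5′ to 3′ on the gene's strand, with each GTCACGTG or its reverse complement in capitals, to show how the matches are placed in 6 of the 8 promoters.
ATP6V1G1 (chr9:114587659-114587768, plus strand): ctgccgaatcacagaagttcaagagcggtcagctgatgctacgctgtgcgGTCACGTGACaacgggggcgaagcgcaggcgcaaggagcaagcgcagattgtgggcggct
CTSD (chr11:1763928-1764024, minus strand): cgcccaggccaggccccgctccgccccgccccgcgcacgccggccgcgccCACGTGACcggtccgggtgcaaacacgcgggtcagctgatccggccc
LAMP1 (chr13:113296995-113297238, plus strand): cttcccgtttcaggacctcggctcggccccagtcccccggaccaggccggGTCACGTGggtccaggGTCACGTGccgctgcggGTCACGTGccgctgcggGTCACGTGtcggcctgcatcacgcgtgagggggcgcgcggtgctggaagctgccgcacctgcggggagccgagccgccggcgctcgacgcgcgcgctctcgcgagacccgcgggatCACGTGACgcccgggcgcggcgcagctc
ATP6V0B (chr1:43974851-43974958, plus strand): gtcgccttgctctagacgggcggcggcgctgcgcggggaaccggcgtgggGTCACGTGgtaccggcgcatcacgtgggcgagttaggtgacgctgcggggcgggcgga
CTSA (chr20:45891241-45891334, plus strand): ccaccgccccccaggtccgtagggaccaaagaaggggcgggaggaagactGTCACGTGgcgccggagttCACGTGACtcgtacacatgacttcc
ATG14 (chr14:55411831-55411901, minus strand): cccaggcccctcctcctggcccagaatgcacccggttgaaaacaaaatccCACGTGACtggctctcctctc

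The LAMP1 stretch holds 5 matches and that of CTSA 2, while CTSD, ATP6V0B and ATG14 hold 1 each, and the 2 matches of ATP6V1G1 overlap, 1 on each strand. The 8 genes with the 8-letter motif differed in direction. Their log2 changes ran from -0.26 (ATG14) to 0.40 (CTSD), 5 of 8 above 0, with a median of 0.06, while the 44 compared members with a window that lacked it had a median of 0.11. For the 2 members counted as higher, the 250 bases before the start are shown for comparison; neither stretch holds CACGTG.
ATG16L2 (chr11:72814161-72814410, plus strand): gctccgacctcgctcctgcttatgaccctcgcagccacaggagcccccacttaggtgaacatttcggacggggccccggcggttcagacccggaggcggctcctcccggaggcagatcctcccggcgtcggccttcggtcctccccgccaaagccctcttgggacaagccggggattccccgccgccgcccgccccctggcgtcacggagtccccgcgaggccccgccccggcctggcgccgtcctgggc
CTSV (chr9:97039143-97039392, minus strand): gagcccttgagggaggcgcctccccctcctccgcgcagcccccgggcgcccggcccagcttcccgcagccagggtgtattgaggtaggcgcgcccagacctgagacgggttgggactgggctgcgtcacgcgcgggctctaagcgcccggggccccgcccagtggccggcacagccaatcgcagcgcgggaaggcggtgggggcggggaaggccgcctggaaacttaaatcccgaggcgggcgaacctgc

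The initiation, nucleation and lipid transfer genes differed in both directions, and none of the 12 compared was counted at 1.5-fold. Their median log2 change was 0.02, with 6 above 0 and 6 below, and it turned to -0.06 with equal library totals, to -0.01 with the median of all genes set to 0 and to -0.03 under quantile normalization. ULK1, the kinase that starts autophagosome formation, was at 121 and 115 CPM, 1.06-fold lower (0.997 to 1.12). ATG13, the adaptor that ties ULK1 to its complex, had the lowest change of the group, at 89.0 and 64.9 CPM, 1.37-fold lower (1.28 to 1.47). ATG101, the partner of ATG13, was at 53.0 and 57.5 CPM, with an interval of 0.999 to 1.18 that includes no difference.

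Among the other ULK kinases, ULK2, a relative of ULK1, was at 31.4 and 26.4 CPM, 1.19-fold lower (1.06 to 1.33). ULK3, a kinase tied to autophagy and Hedgehog signalling, had 78.0 CPM in shControl against 59.9 in shNRP2, 1.30-fold lower (1.21 to 1.40). The ratio of ULK1 to ULK3 reads went from 1.55 in shControl to 1.91 in shNRP2, 1.23 times as high (1.12 to 1.35). ULK4, a pseudokinase, had only 60 and 69 reads, and its pseudogenes ULK4P1, ULK4P2 and ULK4P3 had at most 15 reads in either library. ULK4 and its pseudogenes resemble each other, so their values are uncertain.

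The beclin 1 complex held opposite differences. BECN1, the core of the lipid kinase complex, was at 85.9 and 102 CPM, 1.19-fold higher (1.12 to 1.27). ATG14, which directs that complex to autophagy, was at 25.2 and 20.9 CPM, 1.205-fold lower (1.06 to 1.37). PIK3C3 and PIK3R4, also of the complex, are not members. PIK3C3 was higher, at 15.6 and 21.6 CPM (ratio 1.38, 1.19 to 1.596). PIK3R4 was slightly lower, at 88.8 and 82.7 CPM (ratio 0.931, 0.871 to 0.995). The lipid transfer proteins ATG2A and ATG2B were both higher, at 78.9 and 90.3 CPM (1.14-fold, 1.07 to 1.22) and at 51.6 and 63.0 CPM (1.22-fold, 1.13 to 1.33). The scramblase ATG9A was at 93.3 and 88.2 CPM and its relative ATG9B at 14.1 and 15.9 CPM, both with intervals that include no difference.

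Conjugation genes were level except at ATG16L2 and in the ATG4 family. Of 11 compared, 1 was counted as higher and 0 as lower, and the median log2 change was -0.03. ATG16L2 had the largest change of all compared members: 101 reads in shControl and 254 in shNRP2, 4.92 and 11.98 CPM, 2.44-fold higher (1.93 to 3.10). It resembles ATG16L1, the scaffold that positions the ATG5 and ATG12 conjugate. ATG16L1 itself was level at 27.2 and 26.6 CPM (0.905 to 1.15 for the decrease). The ratio of ATG16L2 to ATG16L1 reads went from 0.181 to 0.450, 2.48 times as high (1.91 to 3.25). Per kb of transcript, the share of ATG16L2 in the pair was 21.6% and then 40.6%. In RefSeq the span of ATG16L2 overlaps that of FCHSD2, named after its values were seen, which was at 17.3 and 23.0 CPM; the rule for assigning shared reads was not found in the labels.

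The ATG4 proteases, which trim ATG8 proteins and release them from membranes, differed in direction. ATG4C was at 15.1 and 22.3 CPM, 1.47-fold higher (1.27 to 1.71), just under the 1.5-fold line. ATG4B was at 67.0 and 55.1 CPM, 1.22-fold lower (1.12 to 1.31), and ATG4D at 47.8 and 38.7 CPM, 1.23-fold lower (1.12 to 1.35). ATG4A was level, at 30.3 and 31.9 CPM. The ratio of ATG4C to ATG4B reads was 0.226 in shControl and 0.405 in shNRP2, 1.79 times as high (1.52 to 2.11). Per kb, ATG4C nonetheless was the lowest of the 4 in both libraries, with 7.81% and 12.6% of their sum.

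The rest of the conjugation system lay close to no difference. ATG3, the enzyme that attaches ATG8 to lipid, was at 98.1 and 93.2 CPM. ATG7, which activates both ATG8 and ATG12, was at 34.5 and 34.9 CPM, ATG5 at 34.96 and 33.8 CPM, ATG12 at 29.7 and 28.9 CPM and ATG10, which joins ATG12 to ATG5, at 5.89 and 6.51 CPM. The intervals of these 5 genes include a ratio of 1.

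All 4 compared ATG8 family genes lay above 0, with a median log2 change of 0.15, and all 4 stayed above 0 under each of the 3 other scalings. MAP1LC3B, which encodes the LC3 protein used to mark autophagosomes, had the largest change of the 4, at 48.5 and 66.5 CPM, 1.37-fold higher (1.26 to 1.49). GABARAP was at 237 and 267 CPM, 1.13-fold higher (1.09 to 1.17), and GABARAPL1 at 72.7 and 80.0 CPM, 1.1004-fold higher (1.03 to 1.18). GABARAPL2 was at 66.3 and 71.1 CPM, with an interval of 0.996 to 1.15. Per kb of transcript, GABARAP took the greatest share of the 3 GABARAP genes, 58.4% in the control and 59.4% in the knockdown library, so the balance within that family was kept nearly level.

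Several ATG8 genes had few reads. MAP1LC3A, a further LC3 gene, had 1 read in shControl and 15 in shNRP2, a ratio of 14.5 with an interval of 2.24 to 612, and stood under the mean of 1 CPM. MAP1LC3B2, a near copy of MAP1LC3B that can share its reads, had 16 and 8 reads. The pseudogene GABARAPL3 had 3 and 0 reads. MAP1LC3C had 0 reads in both libraries, which allows up to 0.146 CPM in shControl and 0.141 CPM in shNRP2 (3 reads each).

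**Figure D2:**
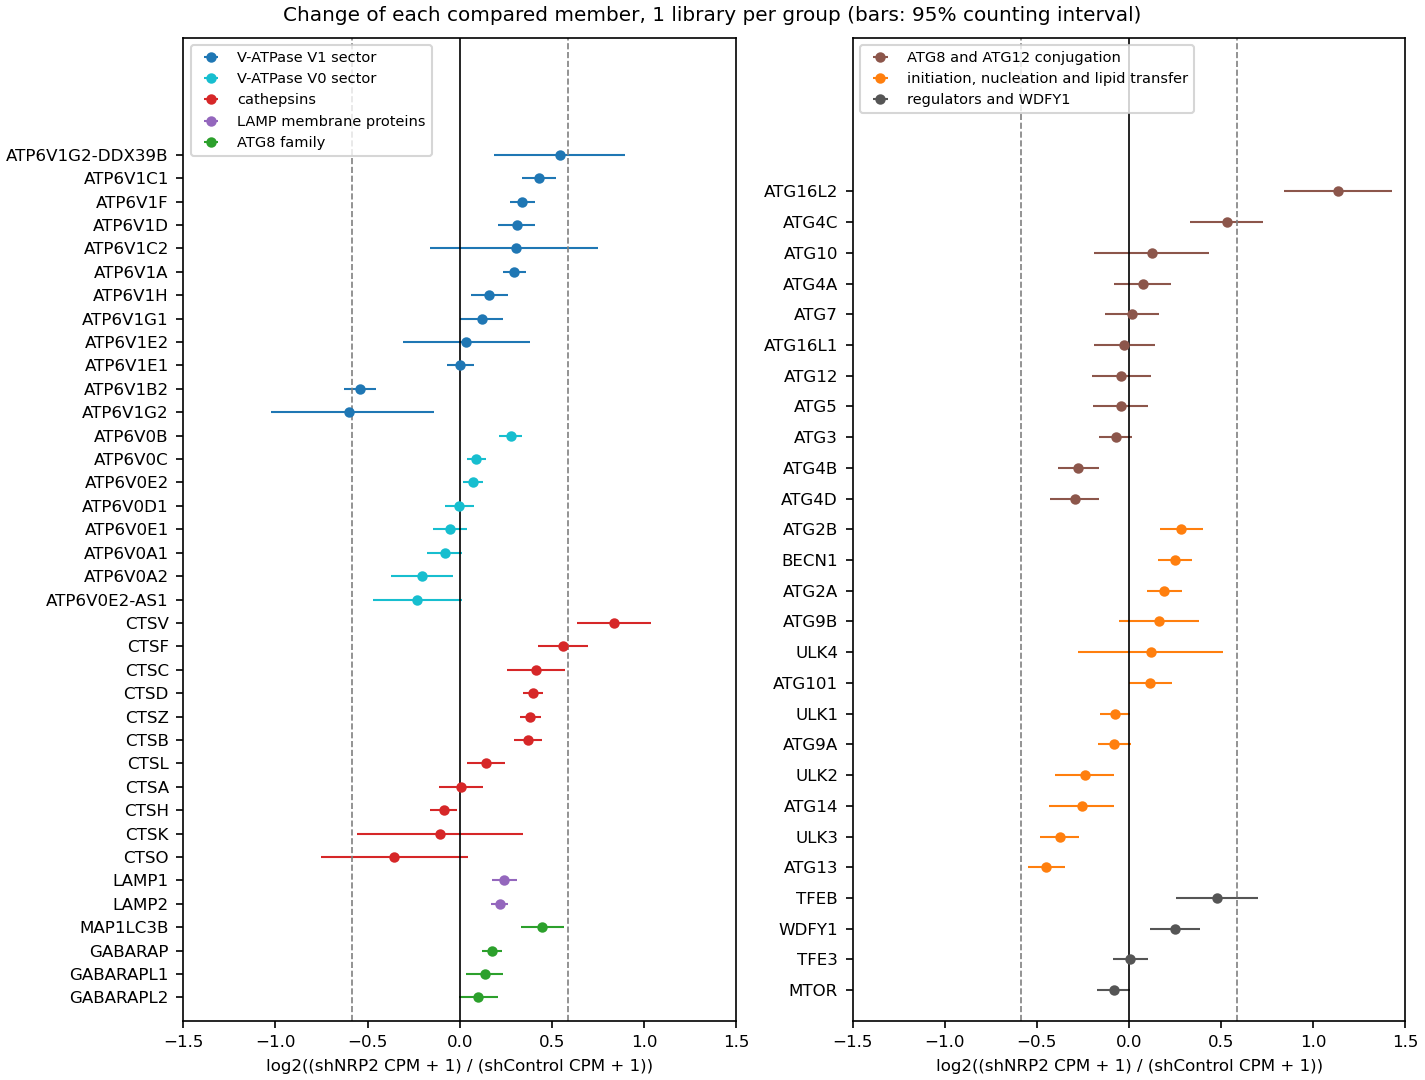
Log2 change (knockdown over control, log2(CPM + 1) scale) of each of the 64 compared members, ordered by role, with bars for the 95% counting interval and dashed lines at 1.5-fold. ATG16L2 and CTSV lie beyond the right line, ATP6V1G2 beyond the left one, and most cathepsins and V1 subunits lie right of 0.

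The V-ATPase consists of the V1 sector, which hydrolyses ATP in the cytosol, and the V0 sector, which carries protons across the membrane. V1 members had a median log2 change of 0.23 and V0 members of -0.03, with 10 of 12 and 3 of 8 above 0. The V1 members include the readthrough model ATP6V1G2-DDX39B, the highest of that sector (0.54). The V0 members include the antisense RNA ATP6V0E2-AS1, the lowest of its sector (-0.23). Neither is a subunit gene, and without them the medians would lie closer together. With equal library totals the medians were 0.15 and -0.11, with 8 and 2 above 0. The difference between the sectors was not tested. No V0 member and 1 V1 member, ATP6V1G2, was counted at 1.5-fold.

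In the V1 sector the 2 subunits of the catalytic ring differed in opposite directions. ATP6V1A, the catalytic A subunit, was at 178 and 219 CPM, 1.23-fold higher (1.18 to 1.28). ATP6V1B2, the B subunit that alternates with A in the ring, was at 128 and 87.6 CPM, 1.46-fold lower (1.38 to 1.55). Within each library, the ratio of ATP6V1A to ATP6V1B2 reads was 1.39 in shControl and 2.501 in shNRP2, 1.80 times as high (1.67 to 1.93), a value free of scaling. Per kb of transcript the order turned: A was at 38.8 and B at 44.5 CPM per kb in the control, and A at 47.7 and B at 30.5 CPM per kb in the knockdown library. That turn rests on 1 assumed transcript length per gene (4.591 kb for A, 2.875 kb for B), whereas A had more reads than B in both libraries. The kidney-type paralog ATP6V1B1 had 0 reads in shControl and 5 in shNRP2, with a counting interval that includes no difference, and was 0.398% of the B pair per kb. ATP6V1B2 also passed 1.5-fold lower with equal library totals and under quantile normalization.

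The other main V1 subunits were nearly equal or higher. ATP6V1C1, whose C subunit links the stalks of the pump, was at 77.4 and 105 CPM, 1.35-fold higher (1.27 to 1.44), and its ratio to ATP6V1B2 reads was 1.97 times as high (1.81 to 2.16). ATP6V1D and ATP6V1F, of the central rotor, were at 67.2 and 83.5 CPM (1.24-fold, 1.16 to 1.33) and at 153 and 194 CPM (1.27-fold, 1.21 to 1.33). Both rotor genes were thus higher by a like amount. ATP6V1H, a regulatory subunit, was at 71.4 and 80.0 CPM (1.12-fold, 1.04 to 1.202) and ATP6V1G1 of the peripheral stalk at 52.6 and 57.2 CPM (1.09-fold, 1.00 to 1.18). Its stalk partner ATP6V1E1 was at 148 CPM in both libraries.

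Minor V1 paralogs had low levels. ATP6V1G2, the neuronal G subunit, had 40 reads in shControl and 20 in shNRP2, 1.95 and 0.943 CPM, 2.06-fold lower (1.18 to 3.73). It shares sequence with the readthrough model ATP6V1G2-DDX39B, at 3.41 and 5.42 CPM (1.59-fold higher, 1.17 to 2.174), so both values are uncertain. Per kb, ATP6V1G1 gave 97.5% and 98.9% of the G subunit genes. ATP6V1C2 was at 0.876 and 1.32 CPM and ATP6V1E2 at 4.58 and 4.72 CPM, both with intervals that include 1. ATP6V1G3 had 0 reads in both libraries, and the antisense RNA ATP6V1B1-AS1 had 13 and 14.

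In the V0 sector the differences were small. ATP6V0B, a proteolipid of the rotor ring, had the largest change of the 8 compared V0 members, at 184 and 223 CPM, 1.21-fold higher (1.16 to 1.27). ATP6V0C, the main proteolipid, was at 277 and 295 CPM, 1.06-fold higher (1.03 to 1.103). ATP6V0D1, which couples the ring to the V1 stalk, was at 124 CPM in both libraries. ATP6V0E2 was at 246 and 258 CPM and ATP6V0E1 at 90.7 and 87.5 CPM, so the e2 paralog made up 70.2% and 72.0% of the pair per kb. The antisense RNA ATP6V0E2-AS1 was at 12.95 and 10.9 CPM, and without a known strand setting its reads and those of ATP6V0E2 cannot be told apart.

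The a subunit, which forms the proton path and sets where the pump resides, has several paralogs. ATP6V0A1 was at 88.2 and 83.3 CPM (0.991 to 1.13 for the decrease) and ATP6V0A2, found on Golgi and endosomes, at 27.6 and 23.8 CPM, 1.16-fold lower (1.03 to 1.31). TCIRG1, the a3 paralog known from lysosomes and osteoclasts and not a member, was at 33.4 and 45.3 CPM, a ratio of 1.35 (1.23 to 1.495). The ratio of TCIRG1 to ATP6V0A1 reads was 1.43 times as high in the knockdown library (1.27 to 1.62). Per kb, TCIRG1 was 27.2% of the a subunit genes in shControl and 35.1% in shNRP2, and ATP6V0A1 63.5% and 57.1%. ATP6V0A4 had 1 and 8 reads, and ATP6V0D2 and the pseudogene ATP6V0CP3 had 0 in both.

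**Figure D3:**
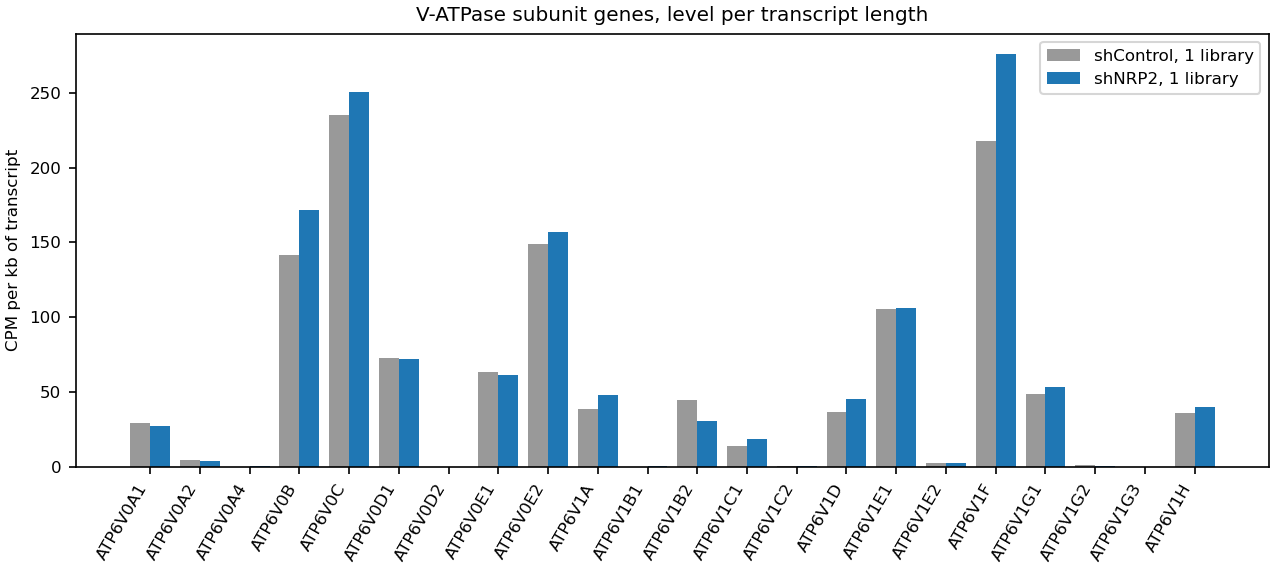
Level of the 22 V-ATPase subunit genes in CPM per kb of transcript (y axis), with grey bars for the control and blue bars for the knockdown library, 1 library each and no error bar. For ATP6V1B2 the control bar is higher (44.5 against 30.5) and for ATP6V1A the knockdown bar (47.7 against 38.8).

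Cathepsins had the highest median of the roles, a log2 change of 0.37 over 11 compared genes. It was 0.29 with equal library totals and 0.26 when genes under 1 CPM were kept. Of the 11, 8 lay above 0 and 1 was counted as higher, with 0 counted as lower. The summed level of the listed cathepsins was 897 CPM in shControl and 1102 CPM in shNRP2, 1.23 times as high. Under the same scaling, the sum over all genes was 1.06 times as high. CTSV, a cysteine protease close to cathepsin L with a narrow tissue range, was at 13.4 and 24.7 CPM, 1.84-fold higher (1.59 to 2.14), from 275 and 523 reads. CTSL itself was at 66.5 and 73.4 CPM, 1.104-fold higher (1.03 to 1.19), and the ratio of CTSV to CTSL reads was 1.67 times as high (1.41 to 1.97). Per kb, CTSV remained the smaller of the pair, with 9.21% and 14.5%.

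CTSD, CTSB, CTSZ and CTSC were higher in the knockdown library by similar amounts. CTSD, the main aspartic protease of lysosomes, was at 231 and 304 CPM, 1.32-fold higher (1.27 to 1.37). Cysteine proteases CTSB and CTSZ were at 119 and 154 CPM (1.29-fold, 1.23 to 1.36) and at 205 and 268 CPM (1.31-fold, 1.25 to 1.36). CTSC, which activates serine proteases of granules, was at 25.4 and 34.1 CPM, 1.34-fold higher (1.199 to 1.51). All 4 intervals overlap one another. CTSF was at 34.1 and 50.7 CPM, 1.49-fold higher (1.35 to 1.64), just inside the 1.5-fold line on the log2(CPM + 1) scale.

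Other cathepsins were nearly equal, lower, scarce or not detected. CTSA, a serine carboxypeptidase that also shields other lysosomal enzymes, was at 53.7 and 54.0 CPM, and CTSH, an aminopeptidase, at 143 and 135 CPM, 1.06-fold lower (1.01 to 1.12). CTSO was at 3.36 and 2.41 CPM and CTSK, the collagenase of osteoclasts, at 1.66 and 1.46 CPM, both with intervals that include 1. The immune cell cathepsin CTSS had 14 and 9 reads. CTSE, CTSG and CTSW, typical of stomach, neutrophils and cytotoxic lymphocytes, had 0 reads in both libraries.

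The 2 main lysosomal membrane glycoproteins were both slightly higher. LAMP1 was at 152 and 180 CPM, 1.18-fold higher (1.13 to 1.24). LAMP2, which also serves chaperone-mediated autophagy, was at 309 and 359 CPM, 1.16-fold higher (1.12 to 1.202). Both differences were alike in size and stayed above 0 under the 3 other scalings. LAMP3, found in dendritic cells, had 7 and 18 reads, LAMP5 2 and 0, and LAMP5-AS1 0 in both.

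**Figure D4:**
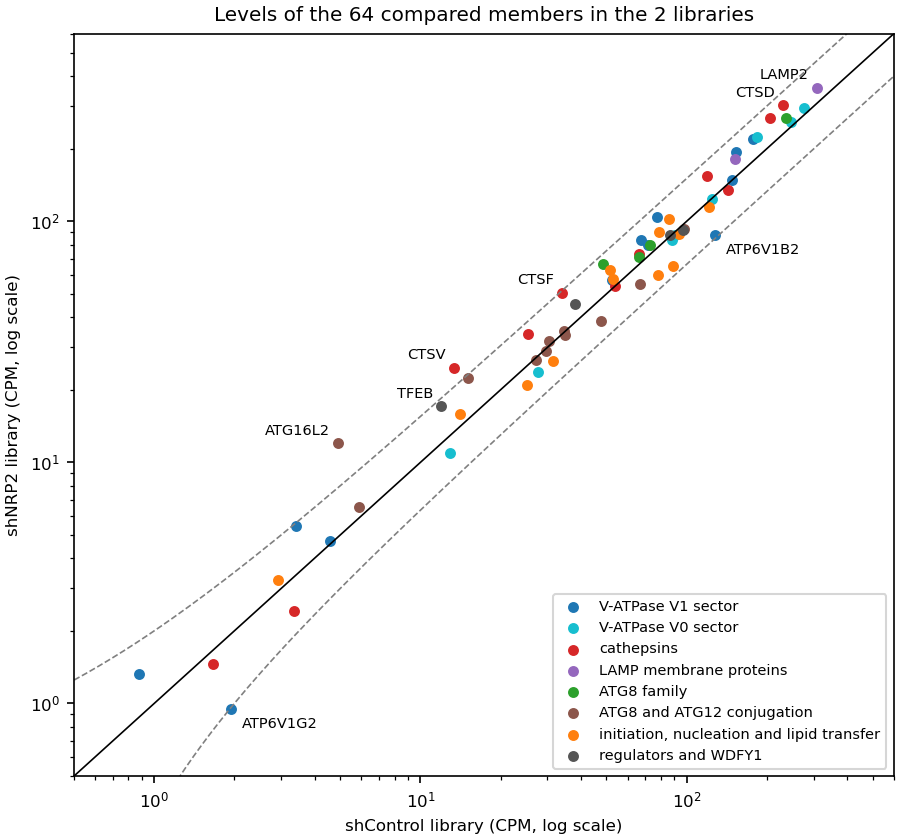
CPM of the 64 compared members in the control (x axis) and the knockdown library (y axis), both on log scales, coloured by role, with the line of equal values and dashed lines at 1.5-fold on the log2(CPM + 1) scale. Most points lie close to the solid line over the whole range, and ATG16L2 (4.92 and 11.98 CPM) lies farthest from it among members above 1 CPM.

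Other genes of the pathway, in 9 lists by role, mostly lay within 1.5-fold as well. Over all compared genes, 5.78% were counted as higher and 3.57% as lower. None of 26 further autophagy initiation and closure genes was counted at 1.5-fold (median log2 change 0.06), with TP53INP1, an LC3 binding protein, the farthest from 0 at 124 and 179 CPM. Of 13 cargo receptors, 2 were counted as higher and 0 as lower (median 0.17). These were OPTN, a receptor for ubiquitinated mitochondria and bacteria, at 30.7 and 49.1 CPM (ratio 1.602, 1.45 to 1.77), and CCPG1, a receptor for endoplasmic reticulum, at 36.7 and 57.9 CPM (ratio 1.58, 1.44 to 1.73). None of 34 regulators of mTORC1 and AMPK was counted (median 0.06), with the AMPK subunit PRKAB1 farthest from 0 at 22.6 and 15.5 CPM. The 12 compared V-ATPase accessory genes also had none (median 0.14), TCIRG1 being the farthest.

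Lysosomal enzymes outside the cathepsins differed in both directions. Of 42 compared hydrolases and activators, 0 were counted as higher and 2 as lower (median 0.12), against 5.78% and 3.57% of all compared genes. Counting intervals lay above 1 for 23 and below 1 for 6 of the 42, against 32.7% and 24.0% of all compared genes. The 2 counted were TPP1, a lysosomal tripeptidyl peptidase, at 89.0 and 56.3 CPM (ratio 0.632, 0.587 to 0.681), and ARSB, arylsulfatase B, at 26.3 and 16.9 CPM (ratio 0.641, 0.559 to 0.734). Among 19 lysosomal membrane proteins none was counted (median 0.11), with CD68, also a macrophage marker, farthest at 6.67 and 9.95 CPM. The part of leukocytes in that value was not tested. Cathepsin inhibitors had 3 compared genes, none counted, with SERPINB6 at 95.4 and 112 CPM. In the list for mannose phosphate sorting, which brings enzymes to the lysosome, the median of 9 genes was -0.07 and none was counted. The mannose phosphate receptors were at 337 and 326 CPM (IGF2R, ratio 0.967, 0.935 to 1.0001) and at 201 and 181 CPM (M6PR, ratio 0.904, 0.865 to 0.945). SORT1, a further sorting receptor of the list, was farthest from 0 at 40.6 and 52.5 CPM.

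**Figure D5:**
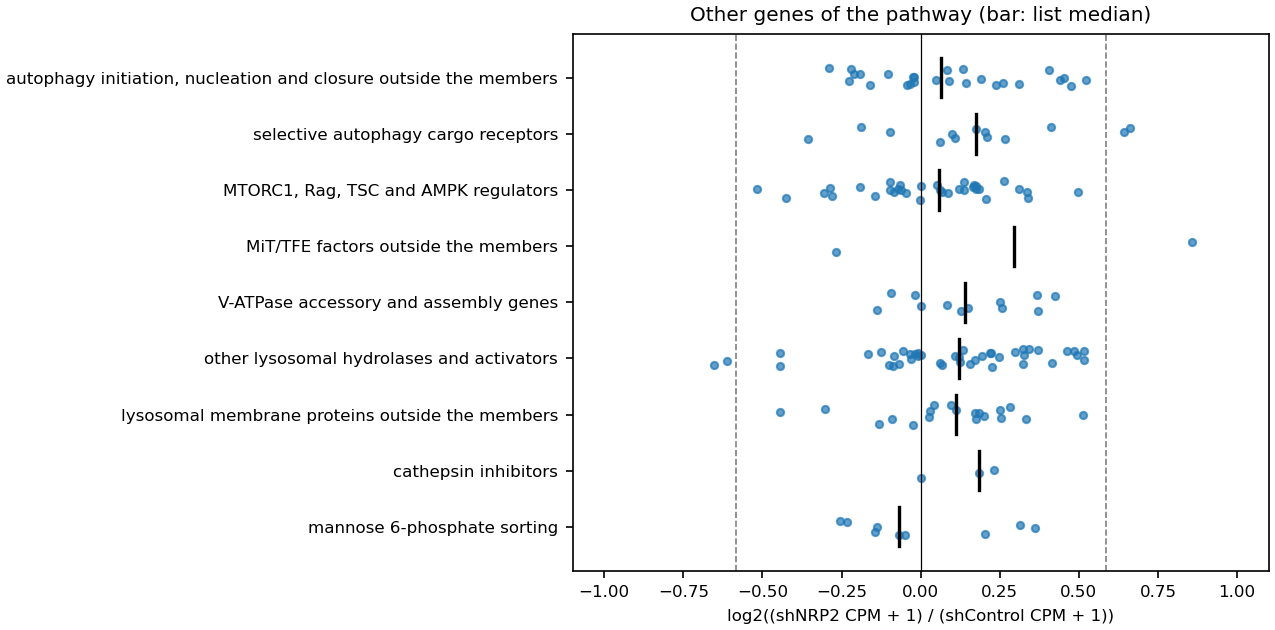
Log2 change (knockdown over control, log2(CPM + 1) scale, x axis) of each compared gene in 9 lists of other pathway genes (rows), with a black bar at each list's median and dashed lines at 1.5-fold. MITF, OPTN and CCPG1 lie beyond the right line and TPP1 and ARSB beyond the left one; the vertical scatter within a row has no meaning.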

How the data were processed

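RNA was sequenced from 2 libraries, 1 per group. Each deposited table lists, by gene symbol, a signal that its file name gives as read counts (CPM) after the authors' TMM scaling. According to the submitters' processing notes, hg19 was the build, and the named tools include edgeR, RSEM 1.2.15, Bowtie2 2.1.0 and bcl2fastq 2.17, without roles; annotation and strand setting were not found. The columns sum to 1024943 and 1084413, which implies scaling factors of 0.976 and 0.922. Their product is 0.900, not the 1 that TMM factors of these 2 libraries alone would give, so the scaling behind each fold is uncertain. All values (100%) were whole multiples of the value of 1 read, 0.0487 and 0.0472 CPM, within 0.01 read, so counts in whole reads were recovered. Whether these are observed reads or rounded estimates was not found, and the intervals take them as observed. Another 28 symbols had become calendar dates (0.181% and 0.184% of reads) and were left out.

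Genes averaging 1 CPM or more were compared, with a pseudocount of 1 CPM and a threshold of 1.5-fold. Ratios within a library were compared by exact conditional odds ratios, for pairs chosen after their values were seen. No molecular identifiers separate reads from molecules, so intervals and floors of 3 reads cover counting error only. Levels per kb used the longest principal transcript in GENCODE 29, matched by symbol for 75 members, for length only. Promoters were matched by symbol.

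Every member is named. Of each list of other pathway genes, those counted at 1.5-fold are named, or else the one farthest from 0. PIK3C3, PIK3R4, IGF2R and M6PR are named besides. Through another symbol, 1 of 176 listed genes was found. The members and lists were chosen with earlier results of these data known. Alternatives were other pseudocounts, filters, scalings and thresholds, and the removal of readthrough, antisense and pseudogene models; a binomial test on the reads was added after the data had been seen. Calculations used Python 3.11.15, scipy 1.17.1 and pandas 2.3.3. The intervals were tested on simulated reads with counting error only, so that check cannot speak to variation between libraries or to the scaling.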

Additional observations from a re-analysis of the deposited data

How the results depend on the processing

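The number of members counted as higher stayed within 1.5 times of 2 under both pseudocounts, both filters, the 3 scalings and the removal of readthrough, antisense and pseudogene models, and ATG16L2 and CTSV were among them in each. It was 1 at a 2-fold threshold. The number counted as lower was 1 and became 0 with a pseudocount of 5 CPM, a filter at a mean of 5 CPM or a 2-fold threshold, and 2 with equal library totals or quantile normalization, which added ATP6V1B2. Counting intervals that exclude no difference, under the deposited scaling only, gave 29 higher and 10 lower. An exact binomial test of each gene on its reads was added after the data had been seen, with Benjamini-Hochberg adjustment over all genes. The test called 28 of 64 members higher and 10 lower. Of all 13316 compared genes it called 7016, 4065 higher and 2951 lower. It compares these 2 libraries, not the conditions. The median change of all members kept its sign in every alternative run, from 0.03 with equal library totals to 0.12 with a filter at a mean of 5 CPM. That of the V-ATPase members, 0.08, turned to -0.00043 with equal library totals and was 0.0046 under quantile normalization. Equal totals lower every CPM ratio by the same factor, and the median of all compared genes went from 0.03 to -0.05. The cause of the value under quantile normalization was not tested. No paired analysis was possible because each group holds 1 library.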
